A study of Homo sapiens with 4 samples.

Results

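The genes described here are 10 components and feedback regulators of SMAD signaling, namely *SMAD2*, *SMAD3*, *SMAD4*, *SMAD7*, *PMEPA1*, *SKI*, *SKIL*, *TGIF1*, *SMURF1* and *SMURF2*. They were chosen by symbol from the 33694 genes of the count matrices, with earlier results of these data known. All 10 were among the 12694 genes with a mean over the libraries of at least 1 CPM, the count scaled to the same total in each library. OVCA420, an established line of human epithelial ovarian cancer, was treated with the cytokine TGF-β1, an inducer of epithelial to mesenchymal transition (EMT). Cells were left untreated (Ctrl) or were given 10 ng/mL TGF-β1 for 1, 3 or 7 days, timed so that all were collected together. From each of the 4 conditions 1 droplet-based scRNA-seq library was made, so the data describe a single line in culture without replicate libraries.

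As background, TGF-β binds paired receptor kinases that phosphorylate the receptor SMADs, SMAD2 and SMAD3, which join the common partner SMAD4 and act on genes in the nucleus. The pathway is known for switching on several of its own inhibitors. SMAD7 occupies the receptors and brings in the ubiquitin ligases SMURF1 and SMURF2, PMEPA1 is a membrane protein that keeps receptor SMADs from the receptor, and SKI, SKIL (also known as SnoN) and TGIF1 hold back SMAD-driven transcription in the nucleus. In epithelial cells the pathway is a classical inducer of EMT and of growth arrest.

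SMAD3 and SMAD4 bind DNA at short CAGAC elements, and GTCTAGAC is a palindromic SMAD-binding element. CAGAC was searched for on both strands in the 250 bases before 1 RefSeq start (GRCh38.p14) per gene, that of the Ensembl canonical transcript. Several genes have more RefSeq windows, such as *SMAD7* with 3, *PMEPA1* with 4 and *TGIF1* with 7, and only the canonical window is described. GTCTAGAC, which reads the same on both strands, was searched for in the whole gene with 5000 bases on either side (GRCh38, GENCODE 44). The longer motif contains neither CAGAC nor its reverse complement. The windows before *SMAD7* and *PMEPA1* are shown because these are inhibitors that act at the receptor and that were far above Ctrl at every time point. CAGAC is in capitals. Both windows are on the minus strand and overlap no annotated exon, at chr18:48950966-48951215 and chr20:57710016-57710265, respectively, the latter within the span of longer *PMEPA1* transcripts.
SMAD7 upstream window: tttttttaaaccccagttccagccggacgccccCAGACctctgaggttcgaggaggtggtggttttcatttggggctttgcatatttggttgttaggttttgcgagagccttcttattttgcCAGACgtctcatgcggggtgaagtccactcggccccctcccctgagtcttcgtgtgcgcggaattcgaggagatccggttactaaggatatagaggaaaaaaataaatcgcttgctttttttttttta
PMEPA1 upstream window: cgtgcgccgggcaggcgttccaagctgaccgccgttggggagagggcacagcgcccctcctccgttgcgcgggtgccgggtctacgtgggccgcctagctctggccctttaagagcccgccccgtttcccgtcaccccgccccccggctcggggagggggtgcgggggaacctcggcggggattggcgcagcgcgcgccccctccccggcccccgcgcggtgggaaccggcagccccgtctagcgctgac
The *SMAD7* window held CAGAC at 217 and 128 bases before the start, and the *PMEPA1* window held none. A window at the canonical start was matched for 9 of the 10 genes (all but *SKI*). Of these 9 windows 3 held CAGAC, namely those of *SMAD7*, *SKIL* at 107 and *SMURF1* at 204 bases before the start. Among 35116 RefSeq windows of this length the share was 38.0%. GTCTAGAC was in none of the 9 windows and in 0.182% of all windows. GGCGC and TGACTCA were also searched for in these windows. GGCGC occurred 4 times in the *PMEPA1* window, which is 76.8% G or C, and 0 times in that of *SMAD7*, at 48%. It was also in the windows of *SMAD2*, *SMAD3*, *SMAD4*, *SKIL*, *SMURF1* and *SMURF2* but not of *TGIF1*, and in 44.5% of all windows. TGACTCA was in neither the *SMAD7* nor the *PMEPA1* window.

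Over the whole genes and their flanks, GTCTAGAC occurred 5 times in *SMURF1*, 3 times in *PMEPA1*, 2 times in *SMAD7* and 1 time each in *SMAD2*, *SMAD3*, *SMAD4* and *SKI*, and it was not found in *SKIL*, *SMURF2* or *TGIF1*. Among protein-coding genes within 10% of the same length, 53.2%, 54.9%, 29.1% and 38.4% had at least as many as *SMAD2*, *SMAD3*, *SMAD4* and *SKI*, respectively, whereas 0.274% of 729 had at least as many as *SMURF1*, 1.17% of 942 at least as many as *PMEPA1* and 2.62% of 1108 at least as many as *SMAD7*. For 2 of the 5 *SMURF1* elements (chr7:99074432-99074461 and chr7:99075795-99075824) the surrounding bases are nearly reverse complements of each other. The count of 5 includes both, although their sequences are not independent. The *SMAD7* element nearest the start lies 1260 bases upstream of the gene (chr18:48952207-48952236 with its surrounding bases), and the other *SMAD7* element and those of the other genes are intronic. The upstream element of *SMAD7* and the 3 of *PMEPA1*, in its introns at chr20:57685132-57685161, chr20:57685423-57685452 and chr20:57689320-57689349, are shown on the minus strand with the palindrome in capitals, because they belong to the same receptor-level inhibitors as the windows above.
SMAD7 upstream element: agcgacagggtGTCTAGACggccacgtgac
PMEPA1 element 1: tctttatgactGTCTAGACgttctgcagat
PMEPA1 element 2: ttgttatctgtGTCTAGACagcacgccagc
PMEPA1 element 3: tcagactggcgGTCTAGACactcatgctcc
A match is a run of letters and was not tested for binding, and genes without a GTCTAGAC match included *SKIL* and *SMURF2*, which were also above Ctrl at every time point.

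Levels are CPM, computed from the unique molecular identifiers (UMIs) of all retained cells of a library, and carry exact Poisson intervals at 95%. Log2 ratios between libraries have exact conditional 95% intervals, and shares of cells have exact binomial 95% intervals. All of these cover counting error only, and with 1 library per condition no difference was tested. The 933 Ctrl, 937 1-day, 705 3-day and 569 7-day cells held 25382817 to 32949874 UMIs per library, with a median of 30270 to 43553 UMIs per cell and a median mitochondrial share of 6.22% to 8.31%. Cells assigned to G1 made up 26.3% of the Ctrl library and 78.2%, 47.7% and 37.4% of the 1-day, 3-day and 7-day libraries, so phase composition differs between the libraries compared. Libraries shared 23 barcodes over the 6 pairs. The 6 epithelial markers (*EPCAM*, *KRT8*, *KRT18*, *KRT19*, *CDH1*, *MUC16*) summed to between 3201 and 4659 CPM with none at 0, although *MUC16* was at 2.97 CPM in Ctrl and at most 0.425 CPM in the treated libraries. The 10 markers of immune, endothelial and stromal cells summed to 4.61 to 8.60 CPM, 2 to 5 of them were at 0 in each library, and *CLDN5* was at 0 in all 4. The only ones with a mean of at least 1 CPM were the macrophage gene *CD68*, with 1.53 CPM in Ctrl against 6.19 CPM at 7-day, and the endothelial cadherin gene *CDH5*, at 5.37 CPM in Ctrl and at most 0.395 CPM in the treated libraries. The part of these values in the results was not tested.

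The transducers of the pathway differed little between the libraries. *SMAD2* (ENSG00000175387, chr18:47808957-47931146 of GRCh38) was at 35.2 CPM in Ctrl (33.1 to 37.4) and at 39.5, 42.4 and 40.4 CPM at 1, 3 and 7 days. Its log2 ratios to Ctrl were 0.17, 0.27 and 0.20, and the intervals of the 3 treated libraries overlapped one another. *SMAD4* (ENSG00000141646, chr18:51028528-51085045), the common partner, was at 12 CPM in Ctrl (10.8 to 13.3) and at 14.7, 15.2 and 15.1 CPM in the treated libraries. In all cells both genes were thus slightly above Ctrl at every time point, by a log2 ratio of at most 0.34. Neither differed among the treated libraries beyond counting error. *SMAD3* (ENSG00000166949, chr15:67063763-67195173) followed another course. It was at 76.3 CPM in Ctrl (73.2 to 79.5), 110 CPM at 1-day (106 to 114), 75.1 CPM at 3-day (72.1 to 78.1) and 84.1 CPM at 7-day (80.6 to 87.8). *SMAD3* was highest at 1-day, where its log2 ratio was 0.53 (0.45 to 0.60), and its 3-day level did not differ from Ctrl beyond counting error (-0.02, -0.11 to 0.06). Among cells in G1 the *SMAD3* ratios were lower, with 0.39 at 1-day and -0.23 at 3-day. Its 7-day ratio there had the opposite sign, at -0.07 against 0.14 in all cells. The *SMAD4* ratios in G1 were 0.51, 0.48 and 0.38 at 1, 3 and 7 days, against 0.29, 0.34 and 0.33 in all cells. At 1-day in G1 *SMAD4* was thus above *SMAD3* by this ratio.

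The receptor-level inhibitors *SMAD7* and *PMEPA1* were far above Ctrl in every treated library. They share this with *SKIL* and *SMURF2*, given below, which were also above Ctrl by at least 2-fold at each time point. *SMAD7* (ENSG00000101665, chr18:48919853-48950965), the inhibitory SMAD, was at 4.33 CPM in Ctrl (3.62 to 5.15), 27.0 CPM at 1-day (25.3 to 28.9), 28.5 CPM at 3-day (26.7 to 30.4) and 16.9 CPM at 7-day (15.3 to 18.6). The 1-day and 3-day levels of *SMAD7* were 6.24 and 6.58 times that of Ctrl and overlapped each other within counting error, while the 7-day level was 3.90 times that of Ctrl. Its log2 ratios were 2.64 (2.37 to 2.92), 2.72 (2.45 to 3.00) and 1.96 (1.68 to 2.26). *PMEPA1* (ENSG00000124225, chr20:57648392-57711536) was at 66.8 CPM in Ctrl (63.9 to 69.8), 1501 CPM at 1-day (1488 to 1514), 1385 CPM at 3-day (1372 to 1398) and 962 CPM at 7-day (949.9 to 974.1). Its log2 ratios to Ctrl, 4.49 (4.43 to 4.56), 4.37 (4.31 to 4.44) and 3.85 (3.78 to 3.92), were the highest of the 10 genes at each time point and lay at percentiles 99.4, 99.0 and 98.6 of all genes tested. The 4 levels of *PMEPA1* had no overlapping intervals, with 1-day highest and Ctrl lowest.

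**Figure D1:**
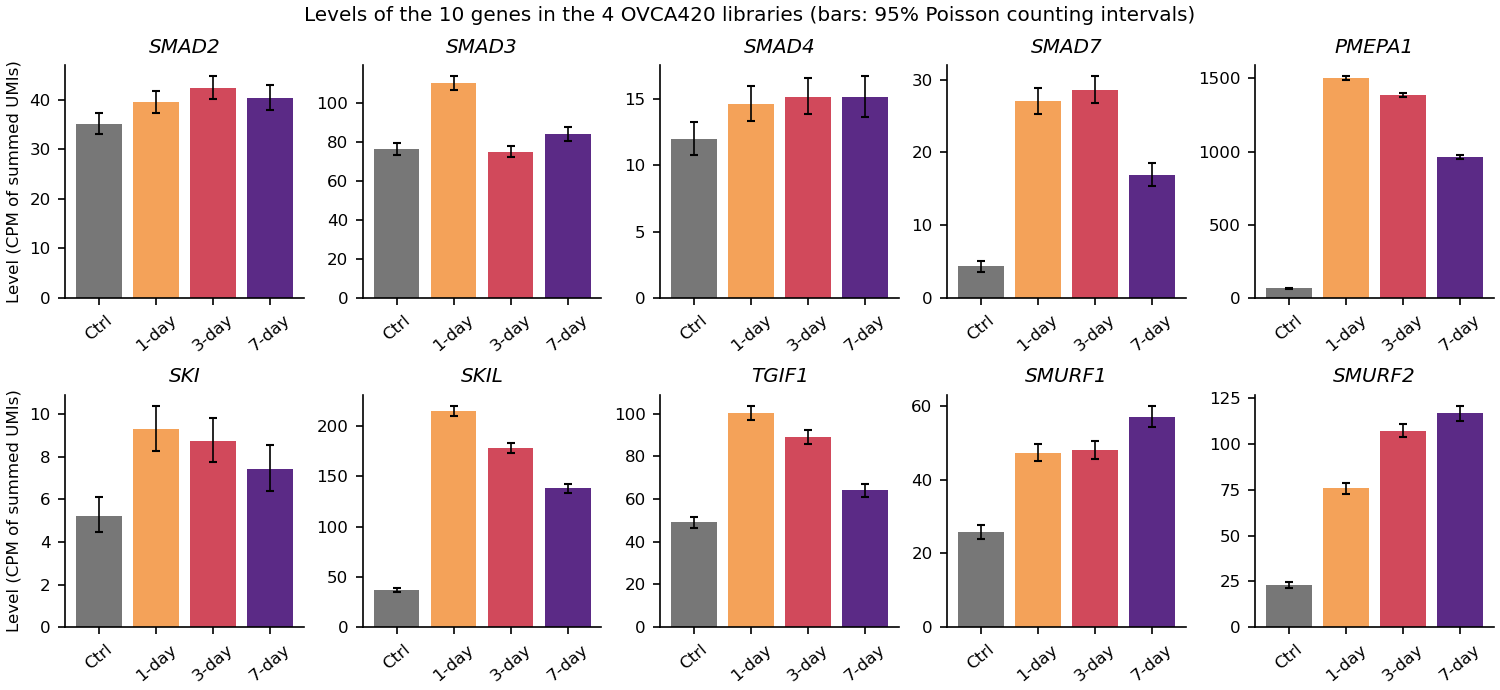
Levels of the 10 genes in the 4 libraries. Each panel is a gene, the x axis gives the library, the y axis gives CPM of summed UMIs on a scale of its own that starts at 0, and the bars show exact Poisson 95% counting intervals. *SMAD7*, *PMEPA1*, *SKIL* and *TGIF1* have their lowest treated level at 7-day, whereas *SMURF1* and *SMURF2* have their highest level there.

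Among the nuclear corepressors, *SKIL* had the highest ratio to Ctrl at every time point, and *TGIF1* and *SKI* had lower ones. *SKIL* (ENSG00000136603, chr3:170357342-170396835) was at 37.0 CPM in Ctrl (34.8 to 39.2), 215 CPM at 1-day (210.2 to 220.2), 178 CPM at 3-day (173 to 183) and 138 CPM at 7-day (133 to 143). The levels of *SKIL* were separated by more than their counting intervals at each step, and its log2 ratios to Ctrl were 2.54, 2.27 and 1.90. *TGIF1* (ENSG00000177426, chr18:3411608-3459978), a homeobox corepressor that binds SMAD2, was at 49.1 CPM in Ctrl (46.6 to 51.6), 100.2 CPM at 1-day (96.9 to 104), 88.9 CPM at 3-day (85.7 to 92.3) and 64.0 CPM at 7-day (60.9 to 67.2). Its log2 ratio was 1.03 at 1-day (0.94 to 1.12), and it stood at 0.97, on the other side of 2-fold, in the later of 2 equal parts of the cells in barcode order. At 7-day *TGIF1* was still above Ctrl, at a log2 ratio of 0.38 (0.28 to 0.49). *SKI* (ENSG00000157933, chr1:2227388-2310213), a relative of *SKIL*, was at 5.23 CPM in Ctrl (4.45 to 6.12) and at 9.29, 8.71 and 7.41 CPM at 1, 3 and 7 days. Its counts were low, 157 to 306 UMIs per library, and the intervals of the treated libraries overlapped, from 8.28 to 10.4 CPM at 1-day to 6.39 to 8.54 CPM at 7-day. The *SKI* log2 ratios were 0.83, 0.74 and 0.50, and at 1-day the ratio was 0.52 after thinning and 1.07 among cells in G1.

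The ubiquitin ligases differed from the other inhibitors in their timing, with the highest level at 7-day. *SMURF2* (ENSG00000108854, chr17:64542282-64662307) was at 22.9 CPM in Ctrl (21.3 to 24.7), 75.9 CPM at 1-day (72.9 to 78.9), 107 CPM at 3-day (104 to 111) and 117 CPM at 7-day (113 to 121). Its log2 ratios were 1.73 (1.60 to 1.85), 2.23 (2.11 to 2.35) and 2.35 (2.23 to 2.47), so that at 7-day it had the second highest ratio of the 10 genes after *PMEPA1*. *SMURF1* (ENSG00000198742, chr7:99027440-99144108) was at 25.8 CPM in Ctrl (24.1 to 27.7), 47.3 CPM at 1-day (44.96 to 49.7), 48.0 CPM at 3-day (45.6 to 50.5) and 57.1 CPM at 7-day (54.2 to 60.1). The 1-day and 3-day levels of *SMURF1* overlapped within counting error, and only the 7-day ratio, 1.14 (1.02 to 1.27), was past 2-fold.

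**Figure D2:**
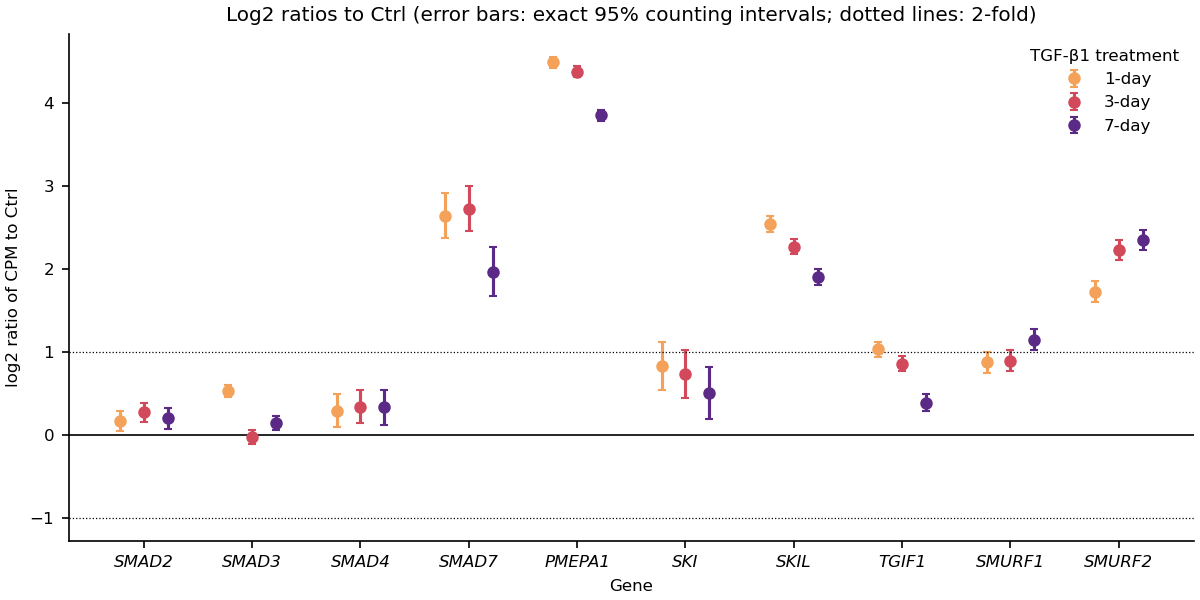
Log2 ratios of the 1-day, 3-day and 7-day libraries to Ctrl for each gene. Points are ratios of CPM, error bars are exact 95% counting intervals, the solid line is no difference and the dotted lines are 2-fold. *PMEPA1* lies at 3.85 to 4.49, and the *SMAD2*, *SMAD3* and *SMAD4* points lie between -0.02 and 0.53.

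At 1-day 5 of the 10 genes were higher than Ctrl by at least 2-fold (*SMAD7*, *PMEPA1*, *SKIL*, *TGIF1* and *SMURF2*), against 10.2% of all genes tested, and 0 were lower by at least 2-fold, against 10.6%. At 3-day 4 genes were higher (*SMAD7*, *PMEPA1*, *SKIL* and *SMURF2*) against 10.9% of genes, and 0 were lower against 8.54%. At 7-day these 4 and *SMURF1* were higher against 12.9% of genes, and 0 were lower against 7.85%. The median log2 ratio of the 10 genes was 0.95, 0.88 and 0.82 at 1, 3 and 7 days, beside a median of -0.07, 0.01 and 0.08 over all genes. The 3 comparisons share the Ctrl library and are therefore not separate evidence. Because the 10 genes were chosen with earlier results of these data known, the shares over all genes give scale only. They do not show that SMAD regulators as a class are more often past 2-fold.

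Between neighbouring time points 0 of the 10 genes differed by 2-fold in either direction. From 1-day to 3-day, 5.69% of all genes were higher and 4.44% lower by 2-fold, and from 3-day to 7-day 2.50% were higher and 1.70% lower. From 1-day to 3-day *SMAD3* (-0.55), *SKIL* (-0.27), *TGIF1* (-0.17) and *PMEPA1* (-0.12) were lower by more than counting error on the log2 scale. *SMURF2* (0.50) was higher, and the intervals of the other 5 genes included 0. Cells in G1 made up 78.2% of the 1-day and 47.7% of the 3-day library. In G1 cells alone *TGIF1* was at 104.0 CPM (100.1 to 108.1) and 102.2 CPM (97.0 to 107.5), which overlap. *PMEPA1* was at 1559 CPM (1544 to 1575) and 1512 CPM (1492 to 1532). *SMAD3* (112 and 73.1 CPM), *SKIL* (224 and 188 CPM) and *SMURF2* (77.4 and 116 CPM) had steps of the same direction in G1. The part of phase in these steps was not tested. From 3-day to 7-day *SMAD7* (-0.76), *PMEPA1* (-0.53), *TGIF1* (-0.47) and *SKIL* (-0.37) were lower and *SMURF1* (0.25), *SMAD3* (0.16) and *SMURF2* (0.12) were higher. The *SMAD7* step from 3-day to 7-day lay at percentile 2.90 of all genes, that of *PMEPA1* at 5.20 and that of *TGIF1* at 6.20. The steps of *SMURF1* and *SMURF2* lay nearer the middle of all genes, at percentiles 73.0 and 57.3.

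Across the treatment as a whole, the 7-day level was 62.5% of the 1-day level for *SMAD7* (55.6% to 70.2%), 64.1% for *SKIL* (61.6% to 66.8%), 64.1% for *PMEPA1* (63.1% to 65.1%) and 63.9% for *TGIF1* (60.1% to 67.8%). Over cells of all phases, these 4 inhibitors had the lowest 7-day levels relative to 1-day of the 10 genes. Their intervals overlapped, a closeness that was noticed after the values were seen. *SMAD3* stood at 76.4% (72.4% to 80.7%) and *SKI* at 79.8% (66.2% to 96.0%) of 1-day, *SMAD2* and *SMAD4* at 102.2% and 103.2% with intervals that included 100%, *SMURF1* at 121% and *SMURF2* at 154% (146% to 162%). Over all genes the median log2 ratio of 7-day to 1-day was 0.16. By this ratio *SMAD7*, *TGIF1*, *PMEPA1* and *SKIL* lay at percentiles 10.8, 11.3, 11.4 and 11.5 of all genes. *SMURF1* and *SMURF2* lay at percentiles 57.3 and 77.2. In G1 cells alone, the 1-day and 7-day levels were 27.2 and 17.1 CPM for *SMAD7* and 104 and 62.6 CPM for *TGIF1*. They were 224 and 155 CPM for *SKIL*, 1559 and 1136 CPM for *PMEPA1* and 112 and 81.7 CPM for *SMAD3*. Cells in G1 made up 78.2% of the 1-day and 37.4% of the 7-day library. The closeness of the 4 inhibitors and their distance from *SMAD3* are therefore described for all cells only. The part of phase was not tested.

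Per-cell detection was described as the share of cells with at least 1 UMI. The 3-day and 7-day cells held more UMIs, with medians of 43553 and 43382 against 30270 in Ctrl and 32393 at 1-day. Whether this came from sequencing or from the RNA content of the cells was not tested. Shares are therefore given as counted and also at an equal depth of 18000 UMIs drawn at random from each cell (thinned cells). The thinned cells numbered 844, 900, 677 and 549 in Ctrl, 1-day, 3-day and 7-day. The libraries hold 1 cell line and no cell type that should lack these genes, so the share that free RNA would give was not measured. *PMEPA1* was detected in 47.5% of Ctrl cells and in 99.5%, 100% and 100% of cells at 1, 3 and 7 days, and in 38.9%, 99.2%, 100% and 99.8% after thinning. *PMEPA1* was therefore found in nearly every treated cell at equal depth. *SKIL* was detected in 58.8%, 99.1%, 99.1% and 97.2% of cells in Ctrl and at 1, 3 and 7 days, and in 43.6%, 95%, 95% and 84.5% after thinning. *SMURF2* was detected in 48.7%, 87.6%, 95.6% and 93.8% of cells as counted, with 3-day highest. After thinning its shares were 31.8%, 70.7%, 79.9% and 82.1%, in the order of its levels. The thinned 3-day (76.7% to 82.9%) and 7-day (78.7% to 85.3%) intervals overlapped.

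*SMAD7* was detected in 12.5% of Ctrl cells and in 56.5%, 67.5% and 50.4% of cells at 1, 3 and 7 days, but after thinning in 7.46% (5.78% to 9.45%), 35.2% (32.1% to 38.4%), 39.0% (35.3% to 42.8%) and 26.4% (22.8% to 30.3%). The 1-day and 3-day shares of *SMAD7*, which differ as counted, thus overlap at equal depth. Thinned shares of *TGIF1* were 54.5%, 79.8%, 76.7% and 66.7%, and those of *SMURF1* were 35.2%, 58.2%, 57.3% and 63.0%. As counted, *TGIF1* was instead highest at 3-day, at 94.0% against 92.0% at 1-day. For *SMAD2* the share as counted was 62.0% in Ctrl and 81.7% at 7-day, and after thinning it was 45.1% and 51.0%. For *SMAD4* the corresponding shares were 30.7% and 48.0% as counted, and 17.3% and 22.6% after thinning. *SMAD3* was detected in 71.6%, 86.3%, 68.1% and 76.0% of thinned cells, and *SKI*, the least detected at each treated time point, in 9.0%, 12.6%, 16.1% and 12.4%.

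**Figure D3:**
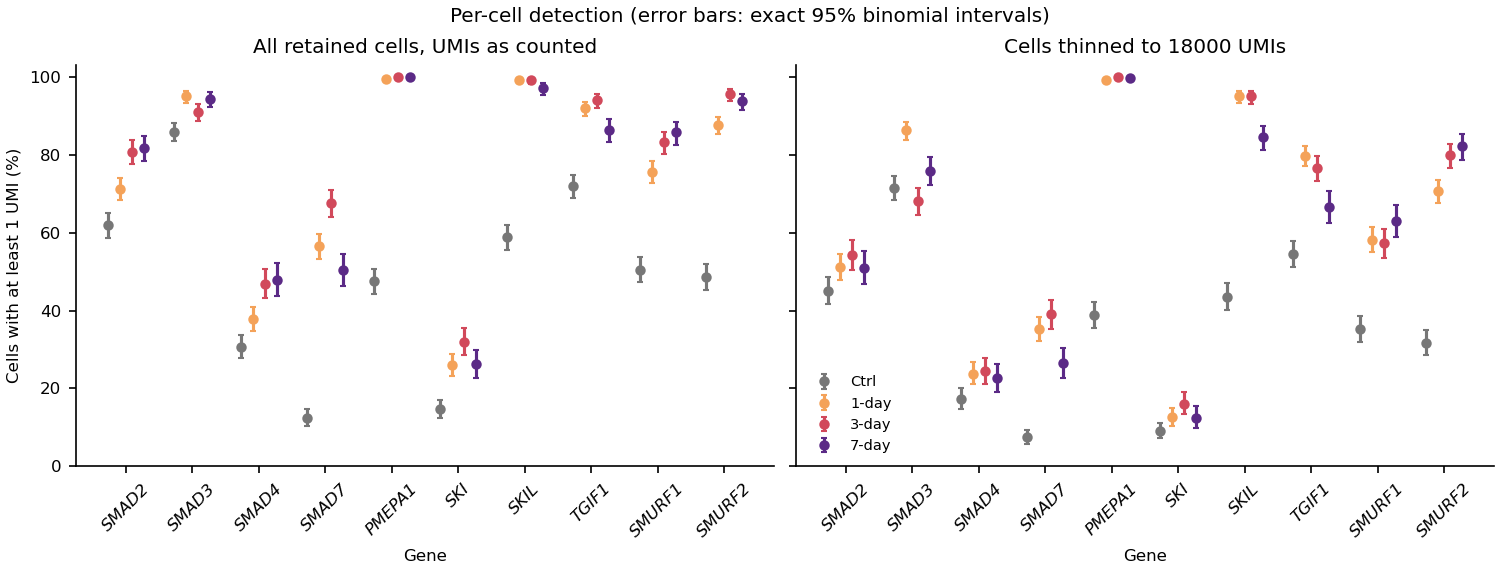
Share of cells with at least 1 UMI of each gene in each library, as counted (left) and after thinning to 18000 UMIs per cell (right). Points are shares in percent and error bars are exact 95% binomial intervals. After thinning *PMEPA1* is at 38.9% in Ctrl and at 99.2% or more in the treated libraries, and the treated shares of *SMAD2* and *SMAD4* draw together.

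*SMAD7*, *SKIL* and *PMEPA1*, 3 of the genes past 2-fold above Ctrl at every time point, were also considered together in thinned cells. *SMURF2*, which was past 2-fold at each as well, was not part of this set. In Ctrl 285 of 844 cells (33.8%, 30.6% to 37.1%) had a UMI of none of the 3, whereas in the treated libraries 0 of 900, 0 of 677 and 0 of 549 cells had none, which allows shares of up to 0.409%, 0.543% and 0.670% (upper ends of the exact intervals). *PMEPA1* alone was missing from 7, 0 and 1 of these treated cells, so the counts of 0 largely restate its detection. All 3 genes were detected in 1.90% of Ctrl cells and in 33.8%, 37.4% and 24.2% of cells at 1, 3 and 7 days. In the treated libraries *SKIL* and *PMEPA1* were each in at least 84.5% of thinned cells. The treated shares with all 3 therefore largely restate the detection of *SMAD7* (35.2%, 39.0% and 26.4%). The mean number of the 10 genes detected in a cell was 3.54 in Ctrl (SD across cells 1.55) and 6.12 (SD 1.30), 6.11 (SD 1.30) and 5.85 (SD 1.42) in the treated libraries.

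The number of *PMEPA1* UMIs per thinned cell set most treated cells apart from most Ctrl cells, but the ranges overlapped. The highest Ctrl cell had 30 UMIs, and the 10th percentile of 7-day cells was 6. The median was 0 in Ctrl and 27, 24 and 16 at 1, 3 and 7 days, and the 90th percentile was 4, 43, 40 and 32. Of the 844 Ctrl cells, 1, 2 and 5 reached the 1-day, 3-day and 7-day median, respectively. In the other direction, 7 of 900 1-day cells, 0 of 677 3-day cells and 1 of 549 7-day cells had no *PMEPA1* UMI, the Ctrl median. *SKIL* overlapped more, with a median of 0 in Ctrl and 4, 3 and 2 in the treated libraries, medians that 12, 36 and 117 of the 844 Ctrl cells reached. For *SMURF2*, with treated medians of 1, 2 and 2, 268, 51 and 51 Ctrl cells did so.

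**Figure D4:**
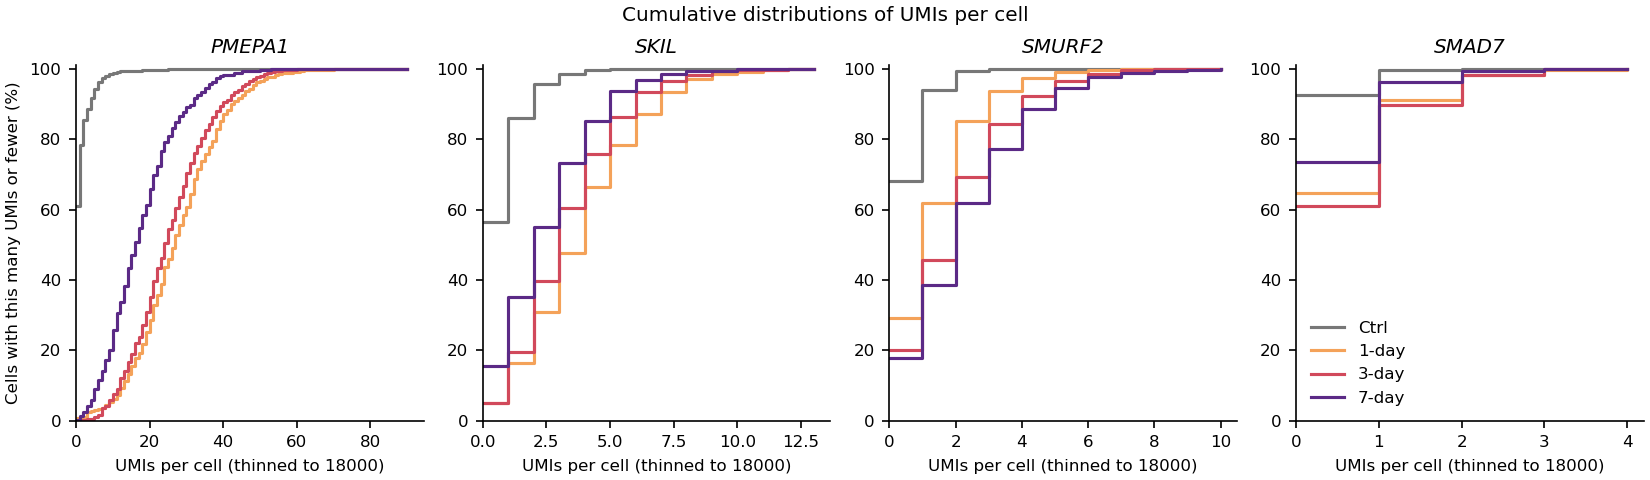
Cumulative distributions of UMIs per cell, thinned to 18000, for *PMEPA1*, *SKIL*, *SMURF2* and *SMAD7*. The x axis gives UMIs of the gene in a cell and the y axis the percentage of cells with that many or fewer, with a line per library. For *PMEPA1* the treated lines lie to the right of the Ctrl line, and 7-day lies between Ctrl and the other treated lines.

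*PMEPA1* was also unevenly spread among untreated cells. In Ctrl its variance over cells was 5.65 times its mean. Among 728 genes whose mean lay within a factor of 1.2 of its own the median of this ratio was 1.14, and 99.9% of them had a lower value than *PMEPA1*. The other 9 genes had ratios from 0.985 to 1.49 over the 4 libraries. The 10 Ctrl cells with the most *PMEPA1* held 18.6% of its UMIs, and the highest held 70 as counted. After thinning 14.7% of Ctrl cells had at least 3 *PMEPA1* UMIs, and the highest had 30. In the treated libraries the variance was 5.25, 4.71 and 5.44 times the mean, where genes of like mean had medians of 2.58, 4.17 and 2.93, so *PMEPA1* did not stand apart there to the same degree (percentiles 78.6, 57.7 and 79.5 of 28, 26 and 39 genes). Among cells in G1 the Ctrl ratio was 6.54, and without the cells marked as doublets it was 5.63.

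Within each library, levels were compared between cells in G1 and cells in G2M. *PMEPA1* was higher in G1 in every library, by a log2 ratio of 0.39 in Ctrl (0.24 to 0.55) and 0.28 (0.25 to 0.31), 0.28 (0.25 to 0.31) and 0.49 (0.44 to 0.53) at 1, 3 and 7 days. *SMURF1* was also higher in G1 in every library, with 0.27, 0.31, 0.38 and 0.33. *SKIL* was at -0.02 in Ctrl (-0.25 to 0.19) and at 0.29, 0.13 and 0.32 in the treated libraries, and *SMURF2* was at -0.26, 0.13, 0.27 and 0.32, with intervals above 0 at 3-day and 7-day. *SKI* was lower in G1 at 1-day (-0.67) and 3-day (-0.72), and *SMAD7* had an interval that included 0 in every library. In Ctrl and at 1, 3 and 7 days, 3, 4, 5 and 4 of the 10 genes were higher in G1 by more than counting error. The shares of all genes were 12.8%, 17.0%, 19.4% and 20.6%. These shares include genes with few UMIs, whose wider intervals exclude 0 less readily, so the counts do not set the 10 genes apart. By size of ratio, the genes counted lay from percentile 66.0 (*SKIL* at 3-day) to 87.0 (*PMEPA1* in Ctrl) of all genes. The log2 ratio of *PMEPA1* to Ctrl at 1-day was 4.49 in all cells and 4.31 among cells in G1, the lowest value under the alternatives tried. The part of phase in the ratios to Ctrl was not tested.

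Correlations across the cells of a library, on thinned counts, were weak among the 10 genes. The 45 pairs had a median Pearson r of 0.018, 0.034, 0.046 and 0.045 for Ctrl, 1-day, 3-day and 7-day. The highest were *SMAD3* with *PMEPA1* in Ctrl (0.20), *SKIL* with *PMEPA1* at 1-day (0.22) and 7-day (0.29), and *PMEPA1* with *SMURF2* at 3-day (0.25). These cells share a library, and sparse counts limit what r can reach, so the values are descriptions without a p-value. With classical SMAD target genes the r of *PMEPA1* varied. With *CCN2*, which encodes a connective tissue growth factor and is listed under its older symbol *CTGF* in the matrices, its r was 0.13 in 844 Ctrl cells and 0.39, 0.34 and 0.40 at 1, 3 and 7 days, and with *TGFBI*, a matrix protein gene, 0.23, 0.39, 0.33 and 0.41. With *SNAI2* it was 0.24, 0.27, 0.13 and 0.19 for Ctrl, 1-day, 3-day and 7-day, and with *CDKN1A* 0.25, 0.07, 0.13 and 0.30. With some others it was near 0, as for *JUNB* (0.07 in Ctrl and 0.01, -0.04 and -0.07 at 1, 3 and 7 days). The same held for *COL1A1* in treated cells (0.09, -0.02 and 0.05), below the r of *PMEPA1* with *SKIL* and *SMURF2* there. The r of *PMEPA1* with *ID1*, which encodes an inhibitor of differentiation, was -0.21, 0.04, -0.11 and -0.25 for Ctrl, 1-day, 3-day and 7-day.

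**Figure D5:**
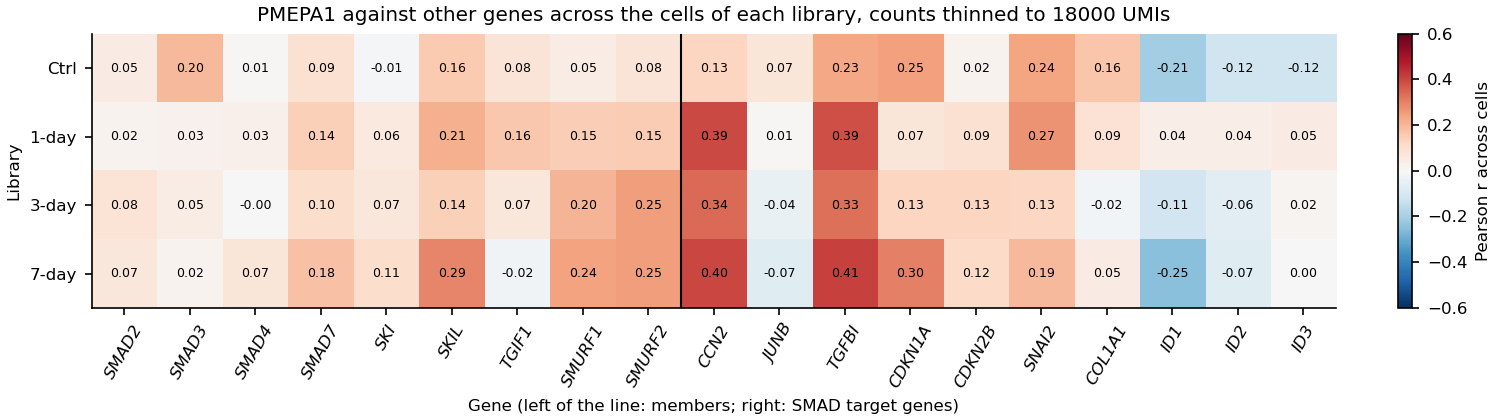
Pearson r between *PMEPA1* and each other gene across the cells of each library, on counts thinned to 18000 UMIs. Rows are libraries, columns are the other 9 genes (left of the line) and SMAD target genes (right), and color runs from -0.6 to 0.6. The highest value is 0.41, with *TGFBI* at 7-day.

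Other genes of the pathway are given from lists by role, with counts past 2-fold against Ctrl. Of all genes tested, 10.2%, 10.9% and 12.9% were higher by 2-fold at 1, 3 and 7 days and 10.6%, 8.54% and 7.85% were lower. These lists, like the 10 genes, were chosen with earlier results of these data known. Of the receptors and co-receptors, 4, 4 and 3 of the 9 tested were higher at 1, 3 and 7 days and 1 was lower at each. The type II receptor gene *TGFBR2* was at log2 ratios of 1.94, 2.78 and 2.98, *BMPR2*, a BMP type II receptor gene, at 2.88, 2.57 and 2.14, and the type I receptor gene *TGFBR1* at 2.30, 2.19 and 1.77. The co-receptor gene *TGFBR3* was lower, at -3.89, -3.59 and -3.19. *TGFBR2* was highest at 7-day as *SMURF2* was, and *TGFBR1* and *BMPR2* were highest at 1-day as *SKIL* was. Of the 3 other SMAD genes tested, *SMAD6*, the second inhibitory SMAD gene, was past 2-fold at 1-day (1.19) and at 0.31 and -0.18 thereafter, and *SMAD1* and *SMAD5* were not past 2-fold.

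Of 8 receptor-level inhibitors and adaptors, 0, 0 and 2 were higher and 0, 1 and 1 lower at 1, 3 and 7 days. *BAMBI*, which encodes a decoy receptor, was lower with time (-0.53, -1.65 and -2.79), while *PPP1R15A* and *HGS* reached 1.42 and 1.05 at 7-day. Unlike *SMAD7* and *PMEPA1*, *BAMBI* was thus below Ctrl at every time point. Of 13 other ubiquitin ligases and deubiquitinases, 0 were higher at any time point and 1 was lower at 1-day (*UCHL5*, -1.13), and of 5 SMAD phosphatases 0 were higher and 1 was lower at 1-day (*CTDSPL*, -1.90). Of 10 other nuclear cofactors tested, 0 were past 2-fold in either direction. Beside these lists, *SKIL* and *SMURF2* were higher by 2-fold at every time point, *TGIF1* only at 1-day, *SMURF1* only at 7-day and *SKI* at none. With 10.2% to 12.9% of all genes higher and 7.85% to 10.6% lower, counts of 0 to 2 in lists this short do not set these lists apart.

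Of 10 SMAD target genes, 7, 7 and 6 were higher and 2 lower at each time point. Over all genes tested the shares were 10.2%, 10.9% and 12.9% higher and 10.6%, 8.54% and 7.85% lower. *CCN2* was at log2 ratios of 5.34, 5.44 and 4.51, and *TGFBI* at 5.04, 5.03 and 4.38. The *ID* genes were below Ctrl at 7-day, with -1.88 for both *ID1* and *ID2* and -0.52 for *ID3*. Of the epithelial markers tested, 1 of 5 was higher at 1-day (*KRT18*, 1.01) and 1 was lower at 3-day and 7-day (*KRT19*, -1.18 and -1.02).

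For the genes past 2-fold at several time points, the genes with the closest course were sought among 7743 genes with a mean of at least 10 CPM, by the Euclidean distance over the 3 log2 ratios to Ctrl. Those nearest *SKIL* were *NEDD9* (0.15), *THBS1* (0.15) and *KLF7* (0.17), and those nearest *SMURF2* were *SLC2A12* (0.10), *SLC12A4* (0.10) and *LARP6* (0.14). *SMAD7* had less close neighbours, *CRCT1* (0.27), *TNFAIP1* (0.28) and *MBOAT2* (0.33). The nearest to *PMEPA1* were *CDH6* (0.42), *SERTAD4* (0.55) and *SERPINE2* (0.65), and in all 3 of these the 3-day level was the highest, whereas *PMEPA1* was highest at 1-day.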

How the data were processed

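Single-cell RNA-seq libraries of OVCA420 cells were analysed, 1 for each of Ctrl, 1-day, 3-day and 7-day. The authors aligned reads to GRCh38 with Cell Ranger 2.0.1 and deposited raw UMI counts per gene and cell. The first 3170 of 10710 listed cells, in barcode order, were analysed here (941 Ctrl, 945 1-day, 712 3-day and 572 7-day), because each matrix used here ended within a cell, which was dropped, so the sums cover part of each library. Cells with more than 200 genes and at most 20% mitochondrial UMIs were retained (3144). The authors' text gives no mitochondrial limit, and the covariate regression of their methods was not applied.

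UMIs were summed per library and scaled to CPM. Genes with a mean of at least 1 CPM over the libraries were compared with a limit of 2-fold, which is a rule of size and not a statistical test, and are called the genes tested. For comparisons at equal depth 18000 UMIs were drawn from each cell, and shallower cells were left out (89, 37, 28 and 20 in Ctrl, 1-day, 3-day and 7-day). Phases used 42 of 43 S and 54 of 54 G2M genes of Seurat 5.3.0. Scrublet in scanpy 1.11.5 marked 40 cells (1.27%) as doublets, which were retained in the main values. Analyses ran in Python 3.11.15 (scipy 1.17.1) and R 4.3.3, and scripts were tested on simulated data. Gene positions are those of GENCODE 44, sequences are from RefSeq and GRCh38, and the gene spans were matched by Ensembl identifier.

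The members and gene lists were chosen with earlier results of these data known. Named genes are all 10 members, up to 3 genes with the highest and 3 with the lowest 7-day ratio per list, and the 3 genes nearest in course to each member past 2-fold at 2 or more time points. A few others (*SMAD1*, *SMAD5*, *SMAD6*, *UCHL5*, *CTDSPL*) are named because their lists or counts are small. The SMAD target genes *JUNB*, *COL1A1* and *CDKN1A* are named outside this rule for their r with *PMEPA1*. Alternatives were other mitochondrial limits, doublets left out, G1 cells only, each of 2 equal parts of the cells, other scalings, thinning, other fold limits and other filters on low values. A gene of one list is not reported here, and the counts of that list leave it out.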

Additional observations from a re-analysis of the deposited data

How the results depend on the processing

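No paired analysis was possible because there is only 1 library for each condition. The 10 genes were recomputed at each time point under 9 alternatives, and of the 270 log2 ratios to Ctrl 241 stayed within the counting interval of the main value and 29 lay outside it. The 3 that changed sign were all of *SMAD3*, at 7-day among cells in G1 (-0.0696) and at 3-day, where the interval includes 0, with a mitochondrial limit of 10% (0.034) and in the first of 2 equal parts of the cells (0.034). The shifts ran from -0.31 to 0.43 on the log2 scale, both for *SKI*. Cells in G1 gave 16 of the 29 values outside the interval. Among them 6 genes were past 2-fold at 1-day, with *SKI* at 1.07, and 5 at 3-day, with *TGIF1* at 1.10. The shares of all genes past 2-fold in either direction were then 21.2% and 23.5%. The *SMURF2* ratios in G1 were 1.97, 2.56 and 2.69 at 1, 3 and 7 days. In the second of 2 equal parts of the cells 4 genes were past 2-fold at 1-day, beside 21.4% of all genes. At a limit of 1.5-fold in place of 2-fold, 7 genes were past it at 3-day against Ctrl (4 at 2-fold) and 1 from 3-day to 7-day (0 at 2-fold), beside 36.8% and 12.4% of all genes in either direction at 1.5-fold. Median-of-ratios scaling moved the log2 ratios to Ctrl of all genes by 0.084 at 1-day, 0.022 at 3-day and -0.058 at 7-day. The 1-day and 7-day shifts have opposite signs, so ratios of 7-day to 1-day move by more than either. Small steps between treated libraries, such as that of *SMURF2* from 3-day to 7-day (0.12), therefore depend on the scaling. Of the 40 shares of cells, 37 lay outside their interval after thinning and 12 did so among cells in G1. Thinned shares were up to 30.7 percentage points below those as counted, a direction that drawing fewer UMIs itself gives. Genes at low counts, *SKI* and *SMAD7* above all, are limited by depth, and without replicate libraries the spread between cultures is unknown.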
